A study of Mus musculus with 3 samples.

Results

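Serpins are a family of proteins of which most are serine protease inhibitors, and 7 of them were followed in mouse skin wounds: *Serpina3b*, *Serpina3j*, *Serpina3n*, *Serpina3g*, *Serpinb5*, *Serpine2* and *Serpinf1*. They were matched by symbol and were 7 of the 62 genes whose symbol begins with Serpin and of the 32285 genes counted. *Serpina3b*, *Serpina3j* and *Serpinb5* were chosen by their measured counts in spots of the Day 7 section. The place of these 3 genes on Day 7, and their comparisons between Day 7 and other days, are therefore given below as descriptions only. All 7 genes had at least 1 UMI (unique molecular identifier, which marks 1 captured RNA molecule) under tissue in every section.

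The data are Visium spatial transcriptomes, in which a frozen section lies on a slide of barcoded spots that capture polyadenylated RNA. The sections were of C57BL/6J mouse skin wounds, 1 each from Day 3, Day 7 and Day 14. Per the methods of the study, the mice were adult males with full-thickness punch wounds of the shaved back, and no altered gene and no agent is stated for the groups used here. There was no unwounded section and no replicate section, so no test between days was possible, and every interval below is a 95% interval that covers counting error only.

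A serpin holds out a flexible reactive centre loop as bait. When a target protease cuts the loop, the hinge at its start slides into the body of the serpin, and the protease is trapped in a covalent complex. *Serpinb5* (maspin) and *Serpinf1* (pigment epithelium-derived factor) are known as serpins that do not trap proteases in this way. In skin, serpins meet the kallikreins that loosen the cornified layer, the plasminogen activators that clear fibrin, and the proteases that neutrophils and mast cells release.

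The loop is the stretch that meets the protease, so its coding sequence is shown for 6 members. Each line begins at the first glycine codon of the hinge and ends before the codons of the conserved end of the loop, and the capitals mark the 8 hinge codons.
Serpina3b: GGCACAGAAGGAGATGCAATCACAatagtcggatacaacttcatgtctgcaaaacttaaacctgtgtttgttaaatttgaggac
Serpina3j: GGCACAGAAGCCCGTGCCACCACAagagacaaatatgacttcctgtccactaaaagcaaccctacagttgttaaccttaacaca
Serpina3n: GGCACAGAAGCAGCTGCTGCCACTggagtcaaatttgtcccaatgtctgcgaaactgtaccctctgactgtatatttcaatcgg
Serpine2: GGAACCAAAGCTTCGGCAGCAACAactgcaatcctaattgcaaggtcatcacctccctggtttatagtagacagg
Serpinb5: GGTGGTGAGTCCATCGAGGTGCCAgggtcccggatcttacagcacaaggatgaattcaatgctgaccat
Serpinf1: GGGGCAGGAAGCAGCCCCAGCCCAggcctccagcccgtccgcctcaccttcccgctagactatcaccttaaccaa
On mm10 these stretches lie at chr12:104138665-104138748 for *Serpina3b*, chr12:104319686-104319769 for *Serpina3j* and chr12:104413448-104413531 for *Serpina3n*, all on the plus strand. They lie at chr1:79796860-79799492 (minus strand, interrupted by an intron) for *Serpine2*, chr1:106881853-106881921 (plus strand) for *Serpinb5* and chr11:75410215-75410289 (minus strand) for *Serpinf1*. Every stretch is coding sequence of a protein-coding gene.

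Alanine codons, which are common in the hinge of inhibitory serpins, numbered 4 of 8 in *Serpina3n*, 3 in *Serpine2*, 2 in *Serpina3j*, 1 in *Serpina3b*, 1 in *Serpinf1* and 0 in *Serpinb5*. *Serpina3b* and *Serpina3j*, which were often found in the same spots, were 82.3% identical over 1260 aligned coding bases but 63.1% identical over the 84 bases of the loop. *Serpina3n* was 78.9% identical to *Serpina3b* and 81.7% to *Serpina3j* over the coding sequence, and 60.7% and 58.3% over the loop. Among these 3 genes the loop thus differed more than the coding sequence as a whole.

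The 4 *Serpina3* members lie in 1 cluster of near copies on chromosome 12, so the chance that reads were shared between them was checked. The longest run of identical bases between transcripts was 77 for *Serpina3b* and *Serpina3j* and at most 69 for *Serpina3b*, *Serpina3j* or *Serpina3n* with any other *Serpina3* gene compared except *Serpina3g*, below the length of the sequenced reads. *Serpina3g* shared up to 100 bases with *Serpina3n*, 119 with *Serpina3f* and 135 with *Serpina3i*, so its counts are uncertain.

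The Day 3, Day 7 and Day 14 sections had 664, 549 and 697 spots marked as lying under tissue, which held 1772259, 4442962 and 4611723 UMIs. The median marked spot held 1513, 6687 and 4827 UMIs, so the Day 3 section was the shallowest, with 144 spots below 500 UMIs against 10 and 8. The slides also held 49.0%, 59.2% and 50.6% of their UMIs in spots not marked as tissue. All slides carry the same 4992 barcodes, which are spot positions and not shared cells. Levels are UMIs per 1000000 UMIs of all genes (CPM) summed over marked spots.

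*Serpina3b* and *Serpina3j* belong to the antichymotrypsin-like *Serpina3* cluster. *Serpina3b* stood at 79.0 CPM on Day 3 (interval 66.5 to 93.2, 140 UMIs), 30.8 on Day 7 (25.9 to 36.5, 137 UMIs) and 138 on Day 14 (128 to 150, 638 UMIs). *Serpina3j* stood at 132 CPM (116 to 150), 38.0 CPM (32.5 to 44.2) and 154 CPM (143 to 166). In these sums both were lowest on the day whose spots had brought them to attention. Their intervals did not overlap those of the other days. For *Serpina3b* and *Serpina3j* the log2 ratio was -1.36 (-1.71 to -1.01) and -1.80 (-2.09 to -1.50) between Day 7 and Day 3, and 2.17 (1.90 to 2.44) and 2.02 (1.78 to 2.27) between Day 14 and Day 7. Shares of spots with a UMI, after each spot was thinned to 1000 drawn UMIs, did not part Day 3 from Day 7. *Serpina3b* was in 3.76% (2.16 to 6.03) of spots on Day 3 and 3.62% (2.19 to 5.59) on Day 7. *Serpina3j* was in 7.75% (5.39 to 10.7) and 4.57% (2.95 to 6.73), intervals that overlapped.

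*Serpinb5*, a serpin of keratinocytes and other epithelia, followed the same order of days in sums. Its level was 68.8 CPM on Day 3 (57.2 to 82.2, 122 UMIs), 35.3 on Day 7 (30.0 to 41.3, 157 UMIs) and 204 on Day 14 (192 to 218, 943 UMIs). The log2 ratio was -0.96 (-1.31 to -0.61) for Day 7 over Day 3, just short of 2-fold, and 2.53 (2.29 to 2.79) for Day 14 over Day 7, the largest of the members between those days. Unlike *Serpina3j*, whose Day 14 level was within 0.22 (0.01 to 0.44) of Day 3 on the log2 scale, *Serpinb5* ended 1.57 (1.3 to 1.85) above Day 3.

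The epidermal share of the sections moved the same way. The 12 genes of a keratinocyte list (*Krt5*, *Krt14*, *Krt10* and others) together held 10990 CPM on Day 3, 5586 on Day 7 and 14045 on Day 14. Per 1000 UMIs of that list, *Serpinb5* stood at 6.26, 6.33 and 14.6 on the 3 days. On the same measure *Serpina3b* stood at 7.19, 5.52 and 9.85, and *Serpina3j* at 12, 6.81 and 11. On this measure the log2 ratio between Day 7 and Day 3 was -0.38 (-0.73 to -0.03) for *Serpina3b* and -0.82 (-1.11 to -0.53) for *Serpina3j*, both smaller falls than in CPM. For *Serpinb5* it was 0.01 (-0.34 to 0.37), an interval that holds 0, while between Day 14 and Day 7 it was 1.20 (0.96 to 1.46). In bulk sums over spots, fewer cells of a type and less RNA per cell cannot be told apart.

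*Serpina3n*, an acute-phase antichymotrypsin known to bind granzyme B and neutrophil proteases, was early. It had 156 CPM on Day 3 (138 to 175, 276 UMIs), 25.7 on Day 7 (21.2 to 30.8, 114 UMIs) and 25.8 on Day 14 (21.4 to 30.9, 119 UMIs). Its log2 ratio was -2.60 (-2.93 to -2.28) for Day 7 over Day 3, the largest fall of the members, and 0.01 (-0.37 to 0.39) for Day 14 over Day 7. The neutrophil list of 8 genes fell over the same days, from 2097 CPM to 152 and 106; its part in the *Serpina3n* level was not tested.

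*Serpinf1*, a secreted factor that restrains vessel growth, was the most counted member on each day. It had 331 CPM on Day 3 (305 to 359, 587 UMIs), 780 on Day 7 (754 to 806, 3465 UMIs) and 300 on Day 14 (285 to 317, 1385 UMIs). *Serpine2* (protease nexin 1), which blocks thrombin, urokinase and plasmin, had 62.1 CPM on Day 3 (51.0 to 74.8, 110 UMIs), 168 on Day 7 (157 to 181, 748 UMIs) and 135 on Day 14 (125 to 146, 624 UMIs). *Serpinf1* on Day 14 was close to its Day 3 level, with a log2 ratio of -0.14 (-0.28 to 0.00), whereas *Serpine2* on Day 14 was still 1.12 (0.83 to 1.43) above Day 3 (0.99 with DESeq2 size factors, just short of 2-fold). Matrix genes peaked on the same day: the 12 matrix fibroblast genes held 57877, 83477 and 41888 CPM, and per UMI of that list the Day 7 over Day 3 log2 ratio was 0.71 (0.58 to 0.84) for *Serpinf1* and 0.91 (0.62 to 1.21) for *Serpine2*.

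*Serpina3g*, known from activated T cells and myeloid cells, was the least counted member. Its UMIs numbered 7, 22 and 43 in the Day 3, Day 7 and Day 14 sections, or 3.95, 4.95 and 9.32 CPM, and the intervals of neighbouring days overlapped. With 29 UMIs it fell below the minimum of 50 for the first comparison of days, for all comparisons of place and for 2 of the 3 with unmarked spots.

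Counting members past a 2-fold ratio, 2 of 6 tested members were higher on Day 7 than on Day 3 (*Serpine2* and *Serpinf1*), where 8.04% of 10541 genes were, and 3 were lower (*Serpina3b*, *Serpina3j* and *Serpina3n*), where 6.49% of genes were. For Day 14 over Day 3, 3 of 7 were higher (*Serpina3g*, *Serpinb5* and *Serpine2*) against 14.4% of 10955 genes, and 1 was lower (*Serpina3n*) against 6.83%. The *Serpina3g* call rests on 7 UMIs on Day 3, and its log2 ratio of 1.24 had an interval of 0.07 to 2.64. For Day 14 over Day 7, 3 of 7 were higher (*Serpina3b*, *Serpina3j* and *Serpinb5*) against 10.9% of 11746 genes, and 1 was lower (*Serpinf1*) against 7.34%. When every spot was given the same weight (the mean of spot CPM), the *Serpina3b* and *Serpina3j* ratios of Day 7 over Day 3 were 0.02 and -0.78, and *Serpina3n* alone was lower by 2-fold. With all spots of the slide in place of the marked ones, *Serpinf1* on Day 14 no longer passed 2-fold below Day 7. These comparisons share sections and are not independent of each other. The median log2 ratio of all genes tested was 0.04, 0.18 and 0.13 for the 3 comparisons, and that of the members tested was -1.16, 0.81 and 0.91. The 3 members higher on Day 14 than on Day 7 are those chosen by their Day 7 counts. Member counts and medians that use Day 7 are thus descriptions of a chosen set.

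**Figure D1:**
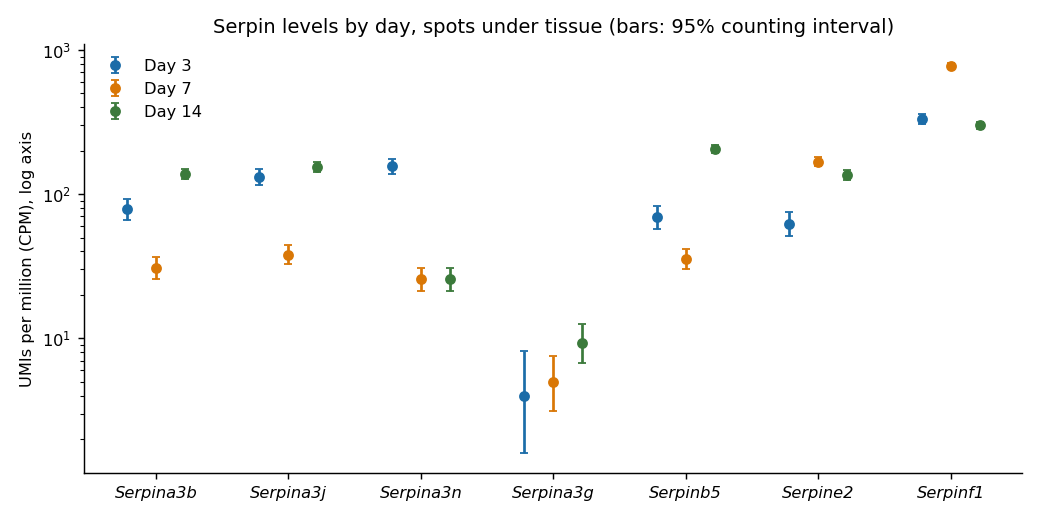
Level of each of the 7 members in CPM (log axis) in the Day 3, Day 7 and Day 14 sections, with 1 section per day; points are sums over marked spots and bars are 95% counting intervals. In these sums *Serpina3b*, *Serpina3j* and *Serpinb5* are lowest on Day 7, *Serpina3n* is highest on Day 3, and *Serpinf1* and *Serpine2* are highest on Day 7.

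To see where in the wound the members lay, spots with at least 500 UMIs were ranked by the keratinocyte, matrix fibroblast and muscle lists, none of which holds a serpin. Spots in the top 20% for a list, and ranked higher by it than by the other lists, were called epidermis-rich (83, 106 and 126 spots on Day 3, Day 7 and Day 14), stroma-rich (89, 105 and 127) or muscle-rich (104, 108 and 138). In each section all 12 genes of each list were higher in the spots named by it than in the other spots, a count that the choice of spots by these genes largely fixes. A spot is a small region of several cells, and the separation was partial: stroma-rich spots still held 8905, 3049 and 9140 CPM of the keratinocyte list, against 26610, 12275 and 26268 in epidermis-rich spots.

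*Serpinb5* was higher in epidermis-rich than in stroma-rich spots on each day. It had 158 against 61.3 CPM on Day 3, 71.1 against 22.7 on Day 7 and 288 against 129 on Day 14. The log2 ratio was 1.37 (0.72 to 2.07) on Day 3 and 1.16 (0.84 to 1.48) on Day 14, and, as a description, 1.65 (1.02 to 2.29) on Day 7, the day by which it was chosen. In sums, *Serpinb5* was thus higher in epidermis-rich spots on Day 3 and Day 14 too. The members and lists were chosen with earlier results of these data known, so these sections are no independent check.

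*Serpina3b* and *Serpina3j* leaned to the epidermis less evenly. *Serpina3b* had 178 CPM in epidermis-rich and 94.3 in stroma-rich spots on Day 3, and 231 against 138 on Day 14, with log2 ratios of 0.92 (0.37 to 1.49) and 0.75 (0.43 to 1.07). *Serpina3j* had 287 against 167 CPM on Day 3 and 273 against 133 on Day 14, with log2 ratios of 0.78 (0.36 to 1.21) and 1.04 (0.72 to 1.36). On Day 7, which chose them, the ratios were 2.25 (1.58 to 2.96) and 2.43 (1.76 to 3.15). On Day 3 and Day 14, both were therefore higher in epidermis-rich spots by more than counting error, but only *Serpina3j* on Day 14 passed 2-fold. With the top 10% of spots the Day 3 ratios turned to -0.11 and -0.18. Muscle-rich spots held little of either: 11.2 and 16.8 CPM on Day 3, 3.70 and 0 on Day 7, and 22.0 and 34.2 on Day 14.

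The other members differed in place. *Serpinf1* was lower in epidermis-rich spots on each day, at 196 against 575 CPM on Day 3, 592 against 987 on Day 7 and 228 against 518 on Day 14, and the log2 ratios were -1.55 (-1.90 to -1.21), -0.74 (-0.89 to -0.59) and -1.19 (-1.40 to -0.97). *Serpina3n* was stromal on Day 3, at 99.0 against 382 CPM (-1.95, -2.43 to -1.48), and less so on Day 14, at 23.7 against 42.2 CPM (-0.83, -1.58 to -0.09). On Day 7 its 39.6 against 25.9 CPM left an interval that held 0 (0.61, -0.09 to 1.31). In sums *Serpine2* showed no strong place: its log2 ratios were -0.73 (-1.57 to 0.09), -0.17 (-0.48 to 0.14) and -0.50 (-0.86 to -0.14). Muscle-rich spots held 89.4, 115 and 134 CPM of it. With the mean of spot CPM, however, *Serpine2* was 2-fold lower in epidermis-rich spots on Day 3.

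Past a 2-fold ratio, 1 of 6 tested members was higher in epidermis-rich spots on Day 3 (*Serpinb5*), where 7.37% of 3394 genes were, and 2 were lower (*Serpina3n* and *Serpinf1*), where 4.68% were. On Day 14, 2 of 6 were higher (*Serpina3j* and *Serpinb5*) against 4.72% of 7252 genes, and 1 was lower (*Serpinf1*) against 3.74%. On Day 7, 3 of 6 were higher (*Serpina3b*, *Serpina3j* and *Serpinb5*) against 5.55% of 7097 genes, a count that the choice of members fixes, and 0 of 6 were lower against 2.51%. With the mean of spot CPM, *Serpinb5* on Day 3 fell short of 2-fold and *Serpina3j* on Day 14 did too, and with the top 1 in 3 of spots no member passed 2-fold on Day 14.

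**Figure D2:**
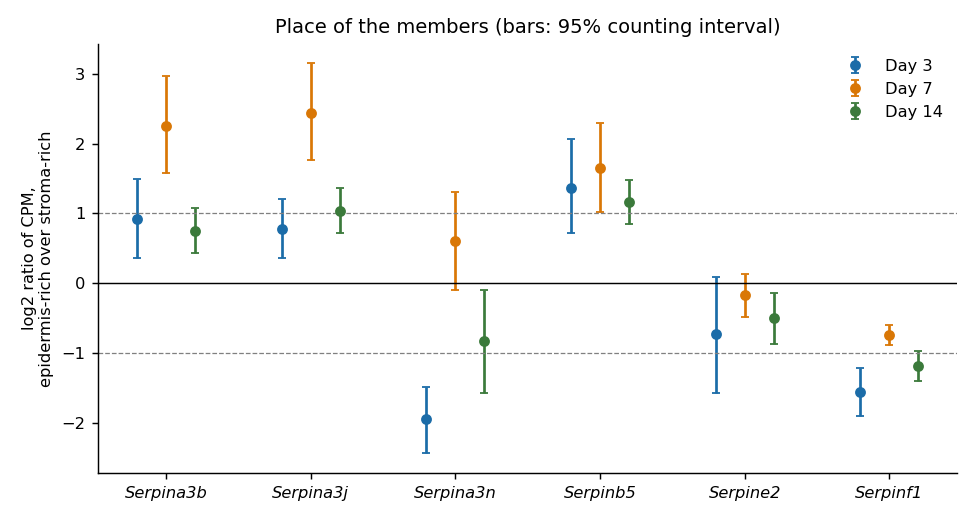
Log2 ratio of CPM in epidermis-rich over stroma-rich spots for 6 members in each section; points are sums over spots, bars are 95% counting intervals, the solid line is no difference and the dashed lines are 2-fold. *Serpinb5* lies above 0 on each day and *Serpinf1* below it, while *Serpina3b* and *Serpina3j* rise above 2 on Day 7 alone, the day that chose them.

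The change of *Serpina3n* between days was larger in stroma-rich spots. In stroma-rich spots its level went from 382 CPM on Day 3 to 25.9 on Day 7, a log2 ratio of -3.88 (-4.42 to -3.37), against -1.32 (-1.99 to -0.66) in epidermis-rich spots. *Serpina3b* and *Serpina3j* on Day 7 were also lower than on Day 3 within epidermis-rich spots, with log2 ratios of -1.15 (-1.62 to -0.68) and -1.72 (-2.14 to -1.30), and so was *Serpinb5*, at -1.16 (-1.66 to -0.66). Those Day 7 spots held 12275 CPM of the keratinocyte list against 26610 on Day 3, so they were less rich in epidermis.

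With distance from the nearest epidermis-rich spot, counted in spot pitches, *Serpina3b* on Day 3 went from 178 CPM in those spots to 82.5 at 1 pitch, 37.8 at 2 and 9.65 at 3 or more. *Serpinb5* went from 158 to 56.8, 34.9 and 15.4 over the same steps. On Day 14 the slope of *Serpinb5* was shallow, from 288 to 219, 198 and 138 CPM, while *Serpina3b* went from 231 to 181, 77.9 and 67.5. *Serpinf1* rose away from the epidermis, from 196 to 423 and 448 CPM on Day 3, and was 324 CPM at 3 pitches or more. The keratinocyte list over the same steps went from 26610 to 7599, 5025 and 2365 CPM on Day 3 and from 26268 to 11647, 9656 and 7519 CPM on Day 14, so it too was flatter on Day 14.

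**Figure D3:**
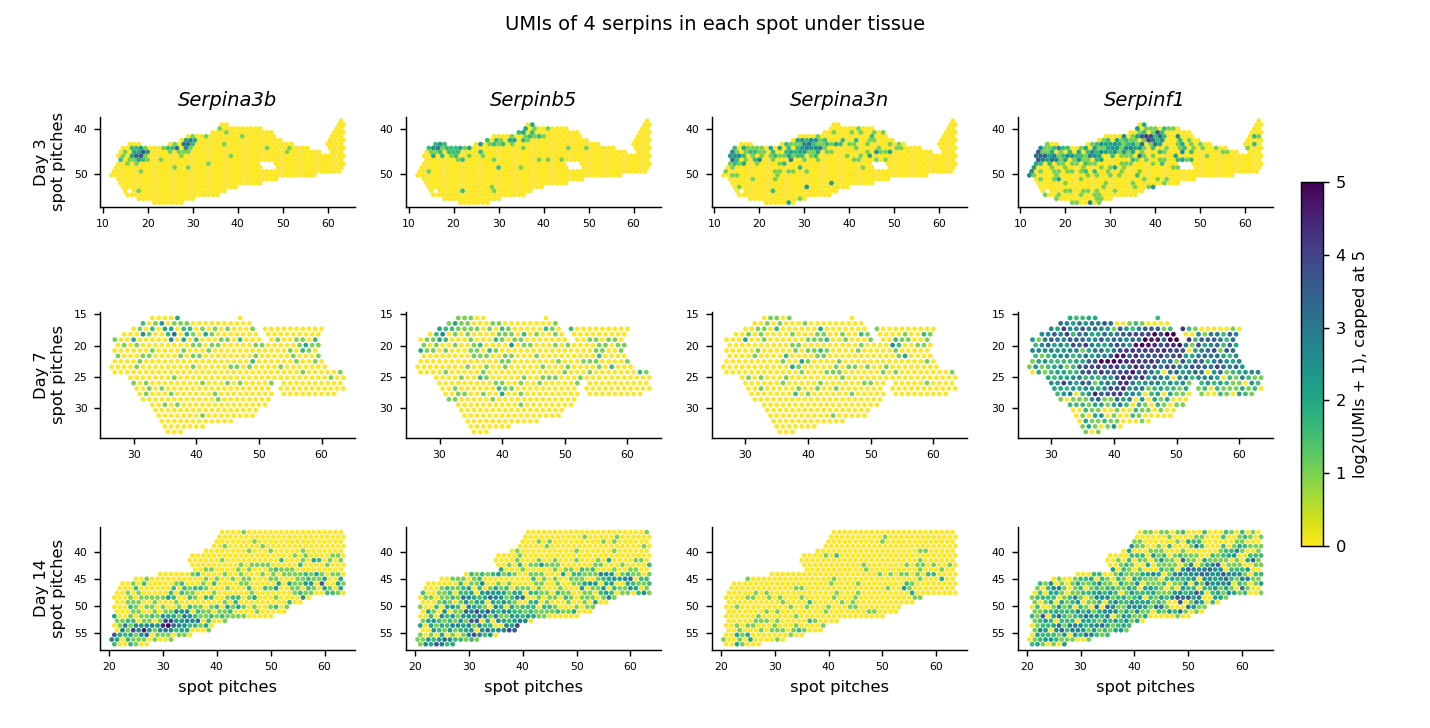
UMIs of *Serpina3b*, *Serpinb5*, *Serpina3n* and *Serpinf1* in each spot under tissue, for the Day 3, Day 7 and Day 14 sections, on log2(UMIs + 1) capped at 5; both axes are positions in spot pitches. On Day 3 *Serpina3b* sits in small patches along 1 edge where *Serpinb5* forms a longer band, and on Day 14 *Serpinb5* covers a wider area than *Serpina3b*; the sections differ in depth, so colours are not comparable between days.

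The members were also compared with 9 further lists of cell type markers. In the top 20% of spots by a sebaceous gland list (*Scd1*, *Awat2*, *Elovl3*, *Dgat2l6*, *Mc5r* and *Far2*, genes of lipid synthesis and signalling in that gland), *Serpina3b* was higher than in the other spots by a log2 ratio of 3.40 (2.77 to 4.09) on Day 3, 2.19 (1.69 to 2.70) on Day 7 and 2.02 (1.79 to 2.25) on Day 14. For *Serpina3j* the ratios were 3.08 (2.62 to 3.56), 1.74 (1.28 to 2.20) and 2.05 (1.83 to 2.27). *Serpinb5* differed, with 0.37 (-0.19 to 0.92), 0.90 (0.37 to 1.41) and -0.03 (-0.26 to 0.19). For the cornified layer list (*Lor*, *Flg* and others) *Serpinb5* was the higher: it had 2.02 (1.48 to 2.57), 1.37 (0.86 to 1.87) and 0.59 (0.39 to 0.80), and *Serpina3b* 0.07 (-0.51 to 0.62), -0.16 (-0.94 to 0.54) and -0.01 (-0.29 to 0.27). *Serpina3j* had 0.65 (0.25 to 1.05) for that list on Day 3, and 0.26 (-0.36 to 0.84) and -0.27 (-0.55 to 0.01) on the later days, intervals that hold 0.

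*Scd1*, which is also made in fat, gave 85.2%, 96.0% and 89.7% of the sebaceous UMIs. With the list cut to the other 5 genes, the *Serpina3b* ratios were 3.56, 1.78 and 1.92, and for the fat list they were -2.54 (-4.43 to -1.15), 0.04 (-0.69 to 0.71) and -1.78 (-2.45 to -1.19). The wound keratin list (*Krt6a*, *Krt6b*, *Krt16* and *Krt17*) went with *Serpina3b* on Day 14, at 1.43 (1.20 to 1.66), but lay apart from it on Day 3, at -1.71 (-2.87 to -0.74).

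To part the 2 lists, spots were split by both, a step chosen after these ratios were seen. On Day 3 the 43 spots in the top 20% of both lists held 99 of the 140 UMIs of *Serpina3b*, that is 70.7%, at 306 CPM (249 to 372), while the 61 spots in the top 20% of the keratinocyte list alone held 9, at 27.9 CPM (12.8 to 53.0). *Serpinb5* lay the other way on that day, at 95.7 CPM (65.1 to 136) in the former and 180 CPM (137 to 232) in the latter. On Day 14 *Serpina3b* had 411 CPM (361 to 467) in the 48 spots of both lists and 105 CPM (84.5 to 130) in the 90 keratinocyte spots, against 232 CPM (194 to 274) and 319 CPM (282 to 360) for *Serpinb5*. *Serpina3j* went with *Serpina3b*, at 491 against 62.0 CPM on Day 3 and 491 against 115 CPM on Day 14. On Day 7 *Serpina3b* had 146 against 31.8 CPM, while *Serpinb5* had 67.5 against 73.5 CPM and did not differ beyond counting error (-0.12, -0.92 to 0.65).

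Counted against *Serpinb5* directly, *Serpina3b* per *Serpinb5* UMI was higher in the sebaceous top 20% than in the other spots by a log2 ratio of 3.01 (2.16 to 3.91) on Day 3 and 2.05 (1.73 to 2.38) on Day 14, and by 1.29 (0.56 to 2.03) on Day 7. For *Serpina3j* these ratios were 2.70 (1.97 to 3.45), 2.08 (1.77 to 2.39) and 0.84 (0.14 to 1.54). The 3 genes were therefore present in different proportions. *Serpina3b* and *Serpina3j* were higher where the sebaceous list was also high. *Serpinb5* was found in spots of both lists and of the keratinocyte list alone, and on Day 14 outside them too. On that day the 461 spots of neither list held 47.9% of its UMIs, at 170 CPM (154 to 186). Spots of both lists were also the deepest on each day, with medians of 7313, 7887 and 11190 UMIs against 3879, 7150 and 7781 in keratinocyte spots, and the part of depth was not tested.

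**Figure D4:**
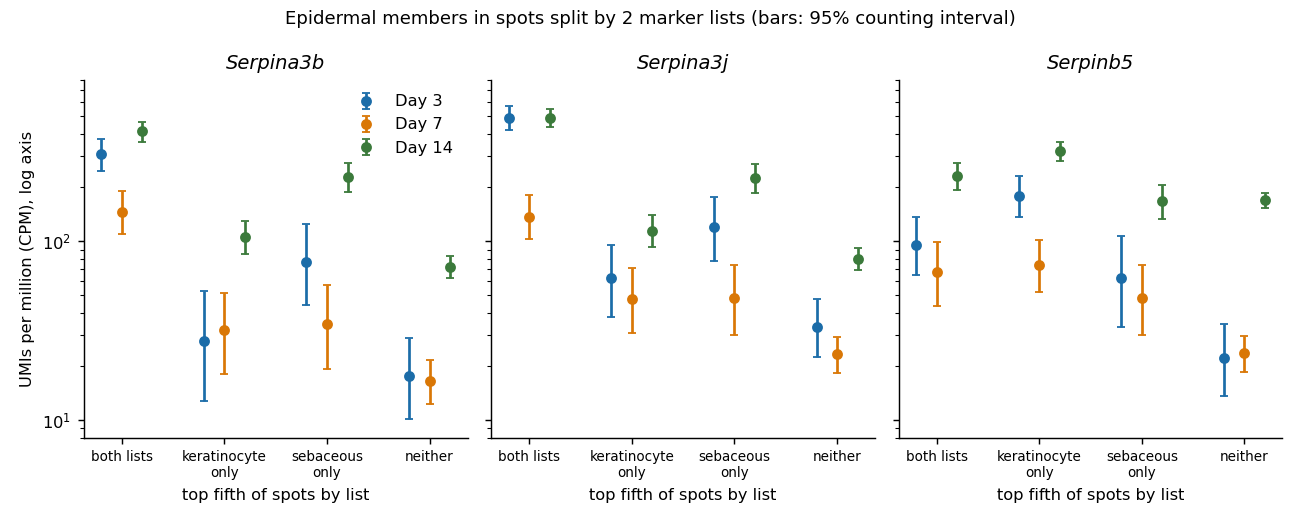
Level of *Serpina3b*, *Serpina3j* and *Serpinb5* in CPM (log axis) in spots that are in the top 20% of the keratinocyte and the sebaceous gland lists, of 1 of them or of neither, for each day; points are sums over spots and bars are 95% counting intervals. *Serpina3b* and *Serpina3j* are highest in spots of both lists on each day, and *Serpinb5* on Day 3 and Day 14 is highest in spots of the keratinocyte list only.

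*Serpina3b* and *Serpina3j* also kept to each other. Of 56 spots with *Serpina3b* on Day 3, 33 also had *Serpina3j* (58.9%), where 17.9% of all 520 spots had it. On Day 7 it was 41 of 93 spots (44.1%), where 21.2% of all 539 spots had it, and on Day 14 173 of 269 spots (64.3%), where 42.5% of all 689 spots had it. These shares were not thinned, and the part of spot depth in them was not tested. Across spots their levels (log1p of UMIs per 10000) had a Pearson r of 0.37, 0.32 and 0.35 on the 3 days, against 0.02 to 0.18 for either of them with *Serpinb5*. Spots of a section share an animal, a library and neighbours, so these are descriptions. The number of *Serpina3b* UMIs per *Serpina3j* UMI was 0.598 (0.482 to 0.741) on Day 3, 0.811 (0.642 to 1.02) on Day 7 and 0.897 (0.805 to 1.0) on Day 14.

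Day 14 differed by the hair follicle list (*Krt25*, *Krt27* and other hair keratins and follicle genes), which held 2.82 CPM on Day 3, 3.60 on Day 7 and 4834 on Day 14. *Serpinb5* on Day 14 was 0.58 (0.38 to 0.77) higher on the log2 scale in the top 20% of spots by that list, and *Serpina3b* was at -0.22 (-0.47 to 0.04). The part of hair growth in the Day 14 level of *Serpinb5* was not tested.

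Of the remaining members, *Serpina3n* on Day 3 was 2.11 (1.75 to 2.49) higher in the top 20% of spots by the matrix fibroblast list, against -0.45 (-0.95 to 0.01) for the granulation tissue list (*Postn*, *Tnc*, *Acta2* and others) and -0.52 (-1.18 to 0.07) for the neutrophil list. *Serpinf1* was higher in matrix fibroblast spots by 0.99 (0.75 to 1.23), 0.55 (0.45 to 0.65) and 0.98 (0.81 to 1.14) over the 3 days, and in granulation tissue spots by 0.82 (0.57 to 1.08), 0.61 (0.52 to 0.71) and 0.90 (0.73 to 1.07). *Serpina3n* was also higher in sebaceous list spots on Day 3, by 0.74 (0.39 to 1.10), and in keratinocyte list spots on Day 7, by 0.79 (0.17 to 1.39). Its matrix fibroblast ratio was 0.24 (-0.34 to 0.80) on Day 7 and 0.96 (0.37 to 1.53) on Day 14, so *Serpinf1* alone of the pair was higher in matrix spots on each day beyond counting error. *Serpina3g* fell below the UMI minimum for comparisons of place and its counts are uncertain, so its list ratios are descriptions only. On Day 7 its ratio was 2.27 (0.84 to 3.91) for the matrix fibroblast list, from 16 against 6 UMIs. For the granulation tissue list it was 2.03 (0.65 to 3.57) on Day 7 and 1.10 (0.07 to 2.07) on Day 14. For the macrophage list it was 1.38 on both Day 7 (0.03 to 2.73) and Day 14 (0.37 to 2.34). These macrophage ratios rest on 11 against 11 and 15 against 28 UMIs. Every other *Serpina3g* interval, including all on Day 3, held 0, except that of the muscle list on Day 14, with 0 against 43 UMIs. *Serpine2* had no ratio beyond 0.60 in either direction for any list on any day.

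**Figure D5:**
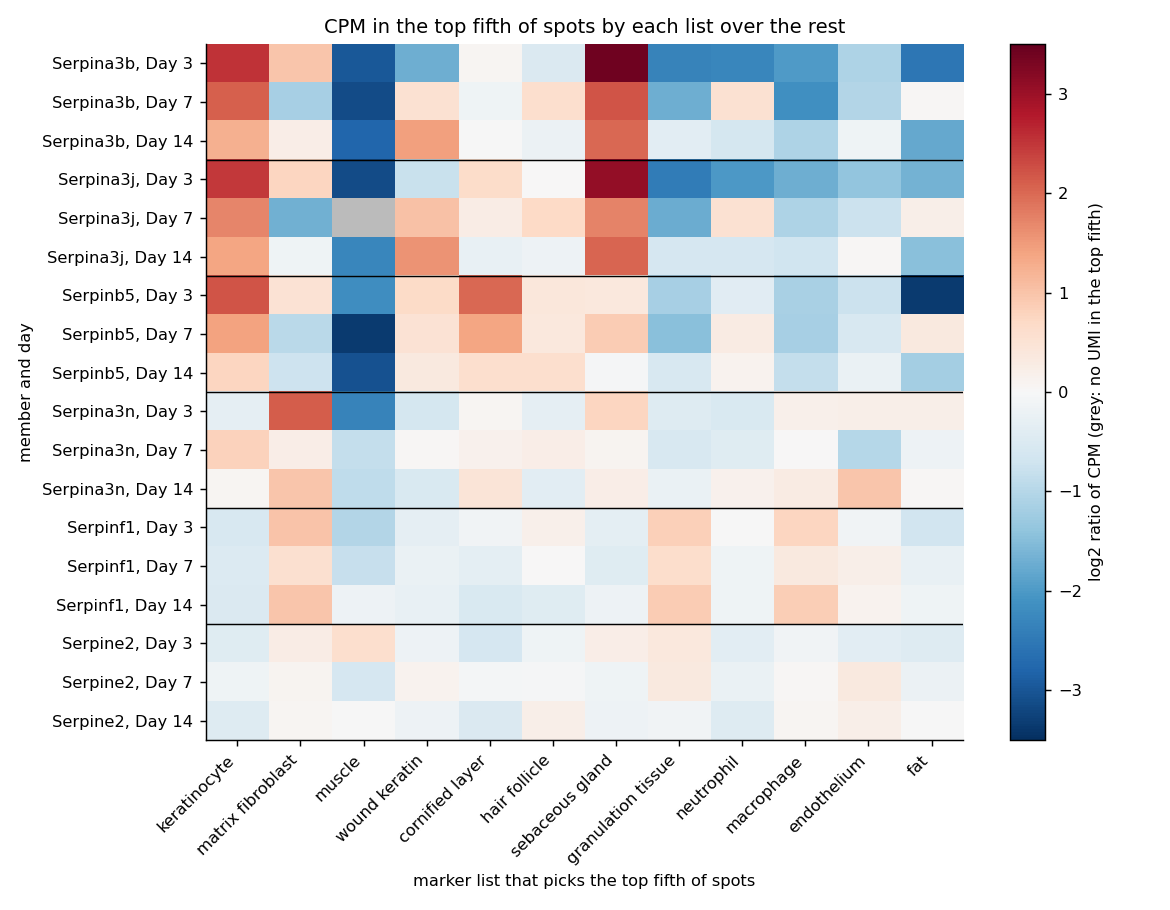
Log2 ratio of CPM between the top 20% of spots by each of 12 marker lists (columns) and the other spots, for 6 members on each day (rows). Red is higher in the top 20%, blue is lower and grey had no UMI there. Under the hair follicle list, only 5 of 104 such spots on Day 3 and 16 of 108 on Day 7 held a UMI of the list. The others were ties taken in spot order, so those cells show no place. *Serpina3b* and *Serpina3j* are reddest under the sebaceous gland list, followed by the keratinocyte list on Day 3 and Day 7 and the wound keratin list on Day 14, *Serpinb5* under the keratinocyte and cornified layer lists on Day 3 and Day 7, *Serpina3n* on Day 3 under the matrix fibroblast list, and *Serpine2* is pale throughout.

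Genes whose pattern across spots was most like each member were read in the section with most UMIs of it. For *Serpina3b* on Day 14 they were *Sdr16c6* (r = 0.44), *Rarres1* (0.40) and *Krt79* (0.39), of 7413 genes over 689 spots, and for *Serpina3j* they were *Msmo1*, a sterol synthesis enzyme (0.38), *Sdr16c6* (0.37) and *Krt79* (0.36). *Krt79* is a keratin of the hair canal and sebaceous duct, and none of these genes was in the lists. For *Serpinb5* on Day 14 they were *Sfn* (0.44), *Krt5* (0.43) and *Perp* (0.40), all on the keratinocyte list, and for *Serpina3n* on Day 3 *Ctsk* (0.40), *Col3a1* (0.39) and *Mmp2* (0.39). For *Serpinf1* on Day 7 they were *Sparc* (0.49), *Col1a1* (0.44) and *Tmsb10* (0.43), whereas for *Serpine2* on Day 7 (*Tapbp*, *Rpl35a* and *Cd248*) and *Serpina3g* on Day 14 (*Tug1*, *Kbtbd2* and *Copb1*) the highest r were 0.26 and 0.21.

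Shares of spots with a UMI were compared after each spot had been thinned to 1000 UMIs. *Serpinb5* was found in 2.82% of 426 spots on Day 3, 4.0% of 525 on Day 7 and 14.0% of 679 on Day 14, and before thinning in 14.8%, 23.6% and 53.6%. In muscle-rich spots, where a keratinocyte gene should be low, the thinned share was 1.19%, 0 of 98 spots (exact upper limit 3.69%) and 3.82%, with wide intervals (1.25 to 8.68% on Day 14). Those spots were no clean blank. They held 223, 470 and 398 CPM of *Krt14* on the 3 days, and 950 and 2451 CPM of the keratinocyte list on Day 3 and Day 7. *Serpina3n* went from 11.7% (8.84 to 15.2) to 2.67% (1.47 to 4.43) and 1.77% (0.916 to 3.07), and its muscle-rich shares were 2.38%, 1.02% and 2.29%. For *Serpina3n* on Day 7 and Day 14, and *Serpinb5* on Day 3 and Day 7, the interval overlapped that of muscle-rich spots. These shares rest on few spots with a UMI, and marked spots include the muscle-rich ones, so the overlap decides nothing. In sums of all UMIs, *Serpinb5* was lower in muscle-rich than in other spots on those days. Its log2 ratios were -2.17 (-4.47 to -0.59) on Day 3 and -3.34 (-8.65 to -0.84) on Day 7. For *Serpina3n* they were -0.83 (-2.73 to 0.56) on Day 7 and -0.88 (-2.35 to 0.29) on Day 14, intervals that hold 0. Muscle was taken as a low reference for a keratinocyte gene only, not for *Serpina3n*.

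Of the other 55 Serpin genes, 26, 29 and 34 had a UMI on Day 3, Day 7 and Day 14. *Serpinh1*, the collagen chaperone of the endoplasmic reticulum, led on each day with 1406, 2416 and 895 CPM, and *Serpinb6a* (688, 354 and 294) and *Serping1*, the inhibitor of complement C1 (250, 151 and 103), came next. Also among the most counted were *Serpinb2* (54.7, 13.5 and 45.3 CPM), *Serpinb8* (47.1 on Day 14) and *Serpinb9* (20.9 on Day 7). Of 10 tested for Day 7 over Day 3, 1 was higher by 2-fold and 4 were lower, where 8.04% and 6.49% of all genes were. For Day 14 over Day 7, 3 of 11 were higher (*Serpinb2*, *Serpinb7* and *Serpinb8*), against 10.9% of all genes. *Serpinh1* alone was lower (1 of 11, against 7.34%). The median log2 ratio of these 11 was -0.27, against 0.13 for all genes tested. For the members it was 0.91, but 3 of them were chosen by Day 7 counts.

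By place, *Serpina12* and *Serpinb2* were 2-fold higher in epidermis-rich spots on Day 3 and Day 14. *Serpina12* had log2 ratios of 1.78 (0.85 to 2.83) and 1.07 (0.28 to 1.94), and *Serpinb2* 1.33 (0.43 to 2.32) and 2.08 (1.39 to 2.86). *Serpinb7* and *Serpinb8* were 2-fold higher there on Day 14. *Serping1* was the only other serpin past 2-fold on the stromal side, at -1.66 (-2.05 to -1.29) on Day 3 and -1.16 (-1.56 to -0.78) on Day 14.

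A list of 29 proteases and related genes that serpins can meet was read in the same way. Of 22 tested, 1 was higher by 2-fold on Day 7 than on Day 3 (*Plat*, tissue plasminogen activator) and 6 were lower, where 8.04% and 6.49% of all genes were. On Day 14, 4 were higher and 7 lower than on Day 3 (14.4% and 6.83% of all genes), and 9 were higher and 6 lower than on Day 7 (10.9% and 7.34%). *Klk7*, the chymotryptic kallikrein of the cornified layer, stood at 87.5, 37.1 and 148 CPM, the same order of days as *Serpina3b*, *Serpina3j* and *Serpinb5*. *St14*, matriptase, stood at 27.1, 22.3 and 166 CPM, and *Plat* at 34.4, 159 and 26.5 CPM. *Plat* and *Serpine2* were both highest on Day 7, and a relation between them was not tested. *Ctsb* stood at 3383, 2078 and 916 CPM and *Mcpt4*, of mast cells, at 42.9, 23.2 and 48.8 CPM. *Prtn3*, with the most UMIs of the neutrophil proteases, had 5, 5 and 17 UMIs, so that these proteases were hardly detected as RNA on any day.

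The members outside the marked spots were compared in the same way, since about as many UMIs lay there. Of 6 tested members 0 were 2-fold higher in unmarked spots on Day 3 (background 3.4% of genes) and 3 were lower (*Serpina3b*, *Serpina3j* and *Serpina3n*, background 15.9%). On Day 7 it was 0 (3.36%) and 2 (*Serpina3j* and *Serpinf1*, 8.91%) of 6, and on Day 14 0 (2.46%) and 4 (*Serpina3b*, *Serpina3g*, *Serpina3j* and *Serpinb5*, 13.7%) of 7. All genes tested had a median log2 ratio of -0.38, -0.38 and -0.54 here, so lower values were common there. With the mean of spot CPM, the 3 Day 3 calls were lost, *Serpina3j* turned to 0.50 and *Serpinb5* was higher by 1.04, and on Day 14 *Serpina3g* alone stayed lower by 2-fold. In sums, *Serpina3b* was lower on each day beyond counting error, at -2.17 (-2.79 to -1.59), -0.90 (-1.27 to -0.52) and -1.08 (-1.28 to -0.88). *Serpina3j* was the only member past 2-fold on each day, at -1.55 (-1.94 to -1.17), -1.31 (-1.68 to -0.94) and -1.36 (-1.56 to -1.16).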

How the data were processed

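UMI counts were measured with Visium in 3 sections, 1 per day, and groups follow the day in the sample labels. The authors made the deposited counts with Space Ranger 1.3.0 on mm10, per the submitters' processing notes, and deposited them raw for 32285 genes and 4992 spots per slide. The deposited position lists mark spots under tissue, and only these were used unless stated.

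UMIs were summed over spots and divided by all UMIs (CPM). Levels carry exact Poisson, shares exact binomial (Clopper-Pearson) and ratios exact conditional 95% intervals, which cover counting error only; spots were not treated as replicates and no test was run. A member or gene was counted as higher or lower at a 2-fold ratio with at least 50 UMIs in the compared spots. Compartments used spots with at least 500 UMIs and the top 20% by each list. Spots were thinned to 1000 UMIs (seed 1) for shares, which left out shallower spots. Likeness was the Pearson r of log1p UMIs per 10000 among genes with at least 100 UMIs. Simulated counts with known changes were used to check the intervals of ratios.

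The members and gene lists were chosen with earlier results of these data known. Named genes were the 7 members, of the other serpins the 5 highest on each day and those past 2-fold by place, the most counted gene of each of the 6 protease groups, and the 3 genes most like each member. A gene that this rule names is not reported here. Serpins past 2-fold between days and the genes of each list named as examples were added after their values were seen, as were the crossing of the keratinocyte and sebaceous gland lists, the list without *Scd1* and the ratios per list UMI.

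Coding sequences and gene positions were read from the GRCm38 (mm10) genome with the GENCODE M21 annotation, by gene symbol; all 7 members matched. Protein sequences were not used here. Alternatives were TMM (edgeR 4.0.16) and DESeq2 1.42.0 size factors, the mean of spot CPM, other spots, folds, gene minimums, list cutoffs and thinning depths. Python 3.11.15, numpy 2.4.6, scipy 1.17.1, pandas 2.3.3, Biopython 1.88, matplotlib 3.10.9 and R 4.3.3 were used. The cell-type deconvolution of the study was not used here.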

Additional observations from a re-analysis of the deposited data

Results flagged for a closer look

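*Serpine2*, which blocks thrombin and plasminogen activators, was the member whose place relative to the marked tissue went opposite ways on different days. Its log2 ratio of CPM in unmarked over marked spots was -0.72 (-0.87 to -0.57) on Day 7 and 0.23 (0.07 to 0.38) on Day 14, with -0.07 (-0.47 to 0.34) on Day 3. In CPM it had 102 in unmarked and 168 in marked spots on Day 7, and 158 and 135 on Day 14. These directions are relative to 0, whereas all genes tested had a median log2 ratio of -0.38 on Day 7 and -0.54 on Day 14. Part of the Day 7 value is thus shared with most genes. The difference between the days was not tested, and each day is 1 section.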

How the results depend on the processing

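With 1 section per day, no variation between animals, slides or sections enters any interval, and no replicate could be left out. No paired analysis was possible because each day had 1 section. Depth limits *Serpina3g* on each day and all members on Day 3. TMM changed no count of members past 2-fold, and DESeq2 size factors changed 1, since they lowered the ratios of Day 14 over Day 3 and took *Serpine2* from 1.12 to 0.99. Neither turned the direction of a member ratio that differed from no change beyond counting error. The cause of the changes below was not tested. The share of all genes past the fold was computed again for changed gene minimums only. The other counts below therefore have no matching share beside them and describe the members alone.

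Between days, the mean of spot CPM gave 1 member lower on Day 7 than on Day 3 in place of 3, with *Serpina3b* at 0.023, and 5 higher on Day 14 than on Day 3 in place of 3. A fold of 3 left 0 higher on Day 7 and 0 on Day 14 over Day 3, and 0 lower on Day 14 over Day 7. With all spots of the slide 0 were lower on Day 14 than on Day 7, and *Serpine2* turned to 0.19. Per keratinocyte list UMI, 1 was lower on Day 7 and 1 higher on Day 14 than on Day 3, and 1 was higher and 3 were lower on Day 14 than on Day 7. The ratios that turned there were *Serpinb5* at 0.014 on Day 7 over Day 3, *Serpina3j* at -0.13 on Day 14 over Day 3 and *Serpina3g* at -0.42 on Day 14 over Day 7. Per matrix fibroblast list UMI, 0 were higher on Day 7 than on Day 3, 5 were higher and 0 lower on Day 14 than on Day 7, and *Serpine2* turned to 0.68.

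By place on Day 3, 2 members were higher in epidermis-rich spots with the top 1 in 3, 0 with the mean of spot CPM, 3 at a fold of 1.5 and 0 at a fold of 3, where 1 was lower. With the mean of spot CPM, and at a fold of 1.5, 3 were lower, *Serpine2* among them. The top 10% turned *Serpina3b* to -0.11 and *Serpina3j* to -0.18. Against all other used spots 3 were higher and 0 lower on Day 3, and 0 were lower on Day 14, where *Serpina3b* passed 2-fold and *Serpinb5* no longer did. On Day 7 the top 10% gave 1 higher and a fold of 1.5 gave 1 lower. On Day 14, 1 was higher with the top 10%, with 3-gene lists and with the mean of spot CPM, and the top 1 in 3 and a fold of 3 each left 0 higher and 0 lower, while a fold of 1.5 gave 2 lower. In unmarked spots the mean of spot CPM gave 1 higher and 0 lower on Day 3, with *Serpina3j* at 0.50, and 1 lower on Day 7 and on Day 14.

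Without a gene minimum, 14.5% to 24.4% of genes passed 2-fold between days in 1 direction.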
